A study of Mus musculus with 27 samples.

Results

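Acute CpG was compared directly with acute Poly(I:C) in bone marrow-derived macrophages (BMDMs), with 3 arrays per ligand, 6 of the 27 arrays of the series. CpG is an unmethylated DNA oligonucleotide sensed by TLR9, and Poly(I:C) is a synthetic duplex of polyinosinic and polycytidylic acid sensed by TLR3. The macrophages came from female C57BL/6 mice aged 6 to 8 weeks and were grown for 7 days in medium conditioned by L929 cells. The study's methods state in one place that each culture came from marrow pooled from 3 mice, with a separate pool for each replicate, and in another that each replicate came from its own mouse. Naïve cells then received CpG (100 µM per the labels, 1 µM per the study's methods) or Poly(I:C) at 10 µg/ml for 4 h. The re-stimulated arrays used for comparison had met the same ligand for 24 h, were washed, and met it again for 4 h. The comparison took every probe that was well above background on at least 2 of the 3 arrays of either ligand, 26533 of the 55681 non-control probes. Values are the deposited normalized log2 intensities, and a difference is always CpG minus Poly(I:C) on that log2 scale.

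TLR9 signals from endosomes through the adapter MyD88, which activates NF-kB, MAP kinases and AP-1 factors and in turn inflammatory cytokine genes. TLR3, also endosomal, signals through TRIF, which activates the kinase TBK1 and the factor IRF3 as well as NF-kB. IRF3 drives the interferon beta gene, and secreted interferon then acts through its receptor on interferon-stimulated genes. In macrophages the MyD88 branch is known for neutrophil-attracting chemokines and IL-1 family cytokines, and the TRIF branch for antiviral genes. The direct contrast of the 2 ligands asks where these programmes part within 4 h.

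Each replicate number was 1 slide, which held 1 CpG and 1 Poly(I:C) array, so that marrow source and slide cannot be told apart. CpG sat at the same array position on every slide and Poly(I:C) at another, so that ligand and position cannot be told apart either. Between 44.7% and 46.2% of non-control spots were well above background on the CpG arrays, and between 46.0% and 50.6% on the Poly(I:C) arrays, with no saturated spot. The untreated arrays, whose values are given for reference, had 50.2%, 46.7% and 74.9% on slides 1, 2 and 3. The last was the highest share of the 25 arrays with deposited values, and its effect on the untreated values of slide 3 was not tested. All 12 macrophage markers tested, among them Csf1r, Cd68 and Itgam, were well above background on each of the 6 arrays. Replicate 3 stood apart. Neutrophil and granulocyte precursor markers (9 tested, among them Ly6g, S100a9, Ngp, Ltf and Mpo) had a median level of 11.81 and 12.51 on the CpG arrays of slides 1 and 2 and of 4.41 on slide 3. On the Poly(I:C) arrays the medians were 11.26, 12.15 and 3.90. The log2 of their summed level ran from 16.73 to 18.10 on the 4 arrays of slides 1 and 2, and was 12.66 (CpG) and 12.47 (Poly(I:C)) on slide 3, where 4 of the 9 were well above background. S100a9 stood at 16.84, 17.57 and 8.08 in CpG. The untreated arrays followed the same order, with medians of 10.86, 11.43 and 4.57. The CpG array of slide 3 correlated more closely with the Poly(I:C) array of its own slide (Pearson r = 0.98 over 26533 probes, which are not independent replicates) than with the other CpG arrays (0.96 and 0.97). Calls on slides 1 and 2 alone are given beside those of all 6 arrays for the main gene lists. This split was chosen after the data were seen. It leaves out a CpG array that lay close to Poly(I:C), which can by itself enlarge the contrast, so its calls are descriptions only. Mast cell and basophil markers (4 tested) were also lower on slide 3, at medians of 3.36 in CpG and 3.11 in Poly(I:C) against 6.43 to 7.08 on slides 1 and 2. Within slides the median difference of the neutrophil markers was 0.62, 0.34 and 0.56 on slides 1, 2 and 3, although Ly6g was lower in CpG on each. The part of these markers in the results was not tested.

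With limma, 23 probes were called higher in CpG (0.0867% of those tested) and 23 higher in Poly(I:C) (also 0.0867%), 0.173% in all. A call needs a Benjamini-Hochberg adjusted p under 0.05 over all 26533 probes and at least 1.5-fold. Adjusted p-values went no lower than 0.0132. At an unadjusted p under 0.05 there were 1764 probes higher in CpG and 1928 higher in Poly(I:C), 3692 in all. The median difference over all probes was 0.00 on arrays that had been quantile normalized. The 2 groups of 3 arrays did not overlap for 9.44% of probes with CpG higher and for 9.35% with Poly(I:C) higher. With the replicate number as a block, 0 probes were called (smallest adjusted p 0.0507), with 5432 at an unadjusted p under 0.05. On slides 1 and 2 alone limma called 599 probes higher in CpG (2.26%) and 1063 higher in Poly(I:C) (4.01%), and 1 fit over all 9 groups of the series called 524 (1.97%) and 820 (3.09%). The counts given below for gene lists, of members called or not overlapping, are to be read against these shares of all probes.

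The genes called higher in CpG were led in size by Cxcl1, Il1b, Shisa3 and Ptgs2. Cxcl1, a chemokine that draws neutrophils, stood at 16.36, 16.10 and 15.39 in CpG on slides 1, 2 and 3 and at 7.60, 7.85 and 10.51 in Poly(I:C), against 4.22, 5.73 and 9.10 in untreated cells. Its difference of 7.30 ± 0.79 (SE, n = 3 and 3) is 157-fold, with limma's adjusted p = 0.0455. The CpG arrays were all far above the others, and the gap was smallest on slide 3.

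Il1b, the precursor of interleukin-1 beta, stood at 16.14, 16.57 and 14.28 in CpG and at 7.86, 8.42 and 9.15 in Poly(I:C), a difference of 7.19 ± 0.65 (146-fold, limma adjusted p = 0.0384). Untreated cells lay between 4.70 and 6.71, below each Poly(I:C) array. Ptgs2, the inducible cyclooxygenase of prostaglandin synthesis, stood at 14.64, 14.73 and 14.24 in CpG and at 8.81, 8.73 and 9.64 in Poly(I:C), a difference of 5.48 ± 0.30 (44.5-fold, limma adjusted p = 0.0138). Both ligands were above the highest untreated array (4.86), and the spread within each ligand was under 1 log2 unit.

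Il12b, the p40 chain shared by interleukin-12 and interleukin-23, had the smallest adjusted p of all probes. It stood at 15.14, 14.64 and 14.88 in CpG and at 10.57, 10.58 and 10.17 in Poly(I:C), a difference of 4.44 ± 0.22 (21.8-fold, limma adjusted p = 0.0132). Unlike Cxcl1 and Il1b, its gap was no smaller on slide 3 (4.71) than on slides 1 (4.57) and 2 (4.06). Shisa3, a transmembrane adapter, was 9.63, 10.12 and 8.94 in CpG and 3.89, 3.92 and 2.71 in Poly(I:C), where 1 of the 3 arrays was well above background. Adm, the precursor of the vasodilator adrenomedullin, was 9.44, 9.5 and 10.22 in CpG and 5.47, 4.83 and 6.46 in Poly(I:C).

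Among the called genes, 3 encode factors of the early transcriptional response. Fosl1, an AP-1 subunit of the FOS family, was higher in CpG by 2.90 ± 0.25, Ier2, an immediate early gene, by 2.83 ± 0.26 and Maff, a small MAF factor, by 2.55 ± 0.21 (limma adjusted p = 0.0384 for each). Fosl1, like Lad1 below, was well above background on only 1 of the 3 Poly(I:C) arrays. Ier2 stood at 9.09, 8.99 and 8.31 in CpG and at 5.82, 5.90 and 6.18 in Poly(I:C), so that Poly(I:C) lay below the untreated cells (6.86 to 7.45) and CpG above them. Nlrp3, the sensor of the NLRP3 inflammasome, was called by both of its probes, with differences of 2.16 and 2.05. The other called genes were Lad1 (3.36), D8Ertd82e (3.17), Fam55c (3.05), AI504432 (2.61), Trim36 (2.10), the potassium channel gene Kcna3 (2.05), Ankrd33b (1.85), the sterol-binding Stard5 (1.70), Heca (1.51) and Dcun1d3 (1.5). Kcna3 (mm9 chr3:106840925-106840984) and AI504432 (chr3:106854016-106854075) lie next to each other on the same strand. Of these, AI504432, Ankrd33b, D8Ertd82e, Heca and Stard5 had other probes that were higher in CpG but not called. A long non-coding RNA region on chromosome 3, not well above background on any Poly(I:C) array and at least 12.6-fold higher in CpG, and 1 probe without a gene name (2.55) complete the 23.

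**Figure D1:**
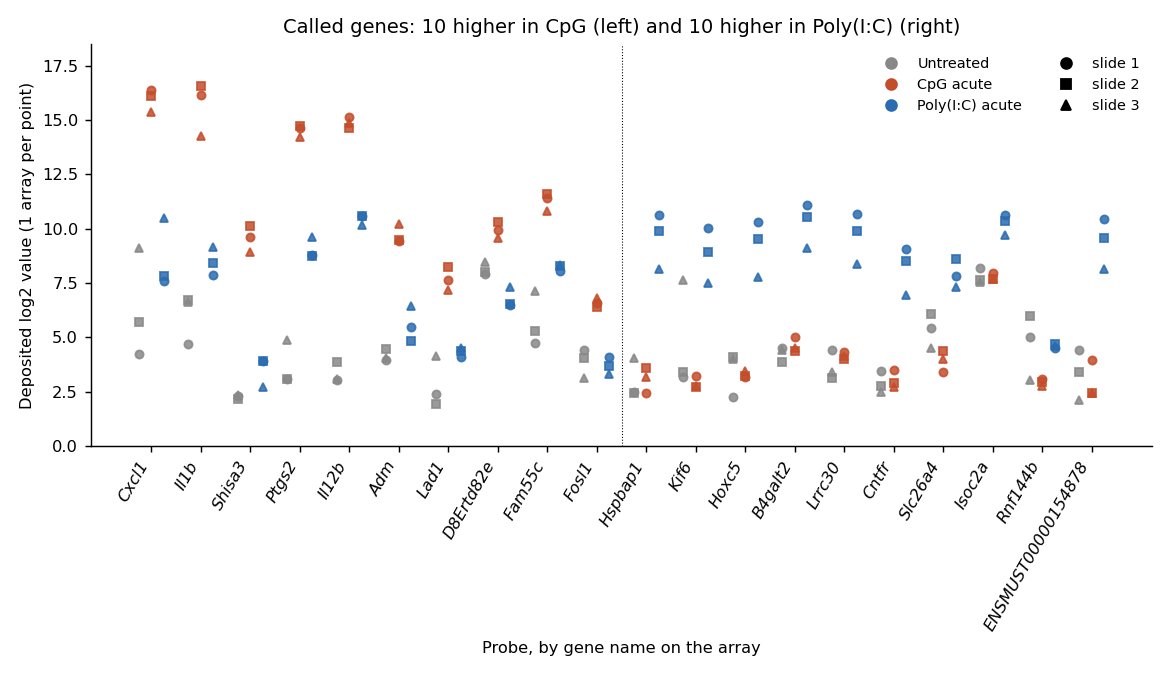
Deposited log2 value (y axis) on each array for 20 called genes (x axis), with untreated arrays in grey, CpG in red and Poly(I:C) in blue, and the marker shape giving the slide. The 10 genes on the left are higher in CpG on all 3 slides, and most of the 10 on the right lie at the untreated level in CpG and between about 7 and 11 in Poly(I:C), lowest on slide 3.

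The probes called higher in Poly(I:C) held no member of the interferon-response lists described further on. They were led by Hspbap1, Kif6, Hoxc5, B4galt2, Lrrc30, Cntfr and Slc26a4, by a transcript known by an Ensembl number, and by long non-coding RNA regions. What most of them shared was in the probe itself. The first 30 of the 60 bases of 6 of these probes are shown, since the letters in capitals set them apart; capitals mark every GGGAGGGG or GGGGAGG or GGGGGG or AGGAAGG, and the sequences are those of the array's own annotation, 5′ to 3′.
Hspbap1: accatcactaaaaaaGGGGAGGGGgctata
Kif6: GGGGGGcagtggaggtgcagaaataggtgc
B4galt2: ccaGGGGAGGGGaaacctttttcattcaac
Lrrc30: ctggtggaGGGGGGactggagatgctctac
Cntfr: tagatgtatatacatgggaGGGAGGGGtag
Slc26a4: AGGAAGGactaatcacagagattcctgact

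For comparison, the same stretch of probes called higher in CpG, and of the Isoc2a probe called higher in Poly(I:C), held none of these letters.
Cxcl1: agaagtgcagagagatagagtttagtatta
Il12b: gctcttcaatcagggcttcgtaggtacatt
Ptgs2: tttttgaaaagtttgaagttagaacttagg
Isoc2a: tcagggcattcggccagtgagtaagacctg

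In mm9 these probes lie at chr16:35828473-35828532 (Hspbap1, + strand), chr17:50049101-50049160 (Kif6, +), chr4:117545953-117546012 (B4galt2, -), chr17:67981021-67981080 (Lrrc30, -), chr4:41604532-41604591 (Cntfr, -) and chr12:32204766-32204825 (Slc26a4, -). The probe of Cxcl1 lies at chr5:91321845-91321904 (+), that of Il12b at chr11:44227121-44227180 (+), that of Ptgs2 at chr1:151954744-151954803 (+) and that of Isoc2a at chr7:4843143-4843202 (+). The strand was read from the order of the coordinates, which matched RefSeq's strand for 99.59% of 13268 probes.

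Hspbap1 stood at 10.64, 9.90 and 8.16 in Poly(I:C) and at 2.46, 3.58 and 3.19 in CpG, where no array was well above background. The Poly(I:C) mean was therefore at least 89.8-fold higher (difference -6.49 ± 0.66, limma adjusted p = 0.0439). Such bounds set the Poly(I:C) mean against the CpG mean, with each CpG value raised to the lowest signal well above background on its array where it was lower. Here each equals the plain fold between the 2 means. They concern background only and are not lower limits over the arrays: the Hspbap1 difference was -8.18 on slide 1 and -4.97 on slide 3. By the same measure Kif6 was at least 60.8-fold higher, Hoxc5 60.7-fold, Lrrc30 45.1-fold, Cntfr 35.8-fold and Slc26a4 15.7-fold. B4galt2 was well above background on 1 CpG array and stood at 11.08, 10.55 and 9.11 in Poly(I:C) against 5.0, 4.37 and 4.5 in CpG (difference -5.62 ± 0.51). Most of these Poly(I:C) values ran in the same order, highest on slide 1 and lowest on slide 3. Hspbap1, Hoxc5, B4galt2, Lrrc30 and Slc26a4 had 1 probe each on the array, and the other probes of Kif6 and Cntfr did not pass the background filter.

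The 4 motifs were chosen after the values were seen and were searched on the probe strand, with their complements counted separately. At least 1 of the G-rich motifs (GGGAGGGG or GGGGAGG or GGGGGG, which overlap) was held by 491 of the 55681 probes (0.882%) and by 338 of those tested. They were in 11 of the 23 probes called higher in Poly(I:C) and in 0 of the 23 called higher in CpG. AGGAAGG without a G-rich motif was in 423 probes (0.760%) and in 7 of the 23. Among the 99 probes with GGGAGGGG the median difference was -2.02, and 53 were at least 2.83-fold higher in Poly(I:C), against 2 in CpG. The medians were smaller for GGGGAGG (-0.25, 246 probes) and GGGGGG (-0.29, 228 probes), for AGGAAGG (-0.11, 434 probes) and for all 491 G-rich probes together (-0.23). The complements CCCCTCCC (87 probes, median difference 0.08), CCTCCCC (242 probes, 0.02) and CCTTCCT (509 probes, 0.03) had medians near that of all probes, and CCCCCC (224 probes) had -0.17, with 20 at least 2.83-fold higher in Poly(I:C) against 3 in CpG.

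The difference depended on where in the probe the first G-rich motif began. Probes of this type are attached to the slide at the 3′ end. Where the motif began at bases 1 to 10 of the 60, counted from the 5′ end, the median difference was -1.32 (105 probes) and 48.6% were at least 2.83-fold higher in Poly(I:C). At bases 11 to 20 these values were -0.73 (86 probes) and 41.9%, at 21 to 30 they were -0.45 (65 probes) and 27.7%, and at 31 to 40 they were -0.13 (76 probes) and 14.5%. At bases 41 to 55 the median was 0.05 (159 probes) and the share 3.77%.

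As a set, probes with a G-rich motif near the 5′ end had a higher median on each Poly(I:C) array of the series than on any other array. For the 191 probes with a G-rich motif starting in the first 20 bases, the median level was 9.83, 8.71 and 7.75 on the acute Poly(I:C) arrays and 9.38, 7.50 and 7.80 on the re-stimulated ones. On the 19 other arrays, untreated or given LPS, Pam3CSK4 or CpG, it lay between 4.59 and 6.24. Single probes could depart from this, and Kif6 stood at 7.63 on the untreated array of slide 3 against 7.48 on the acute Poly(I:C) array of that slide. These re-stimulated arrays had no part in the choice of the called probes. There, 59 of the 500 probes called higher in Poly(I:C) held a G-rich motif, against 1.27% of the probes tested in the acute contrast. AGGAAGG without a G-rich motif was in 5 of the 500, against 0.746% of the probes tested, so these arrays set it apart far less. Whether the signal at these probes came from transcripts of the genes they are named for was not tested. When probes with any of the 4 motifs (914 of all, 536 of those tested) were left out and the fit repeated, 13 probes were called higher in CpG and 0 higher in Poly(I:C), with 3502 at an unadjusted p under 0.05. The motifs came from the called probes, so this step removed 18 of the 23 by choice. The 5 others had been near the threshold (limma adjusted p between 0.0439 and 0.0483). This fit therefore cannot show whether Poly(I:C) differences exist apart from the motifs.

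**Figure D2:**
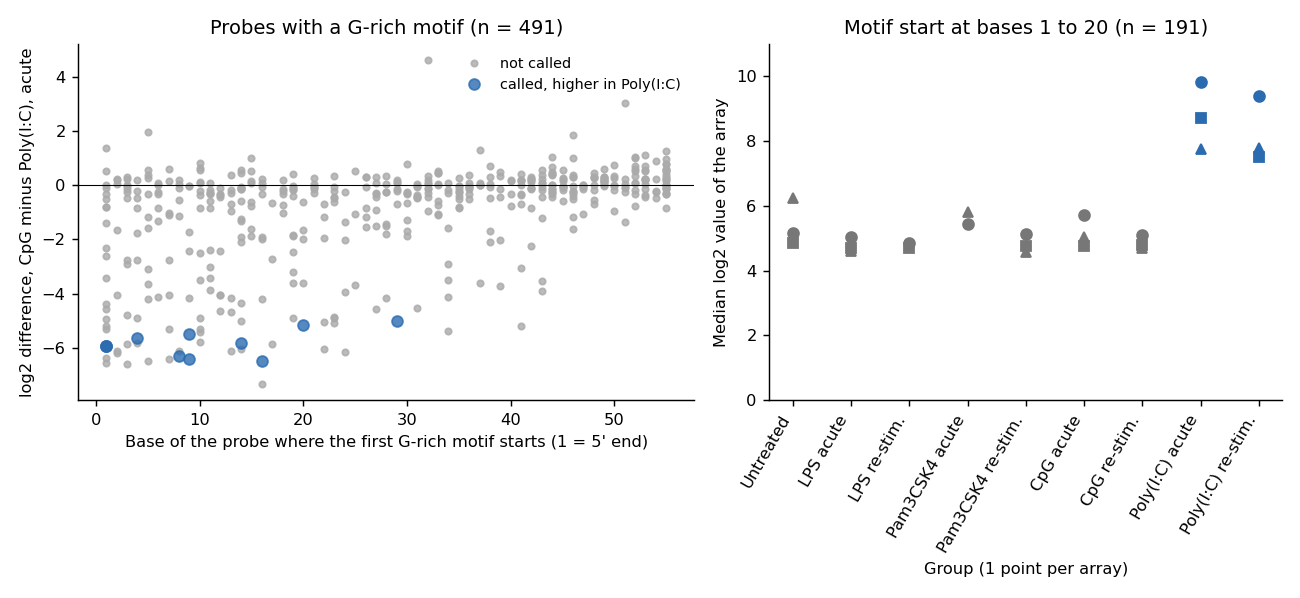
Left, the acute log2 difference (y axis) of each of the 491 probes with a G-rich motif against the base where the motif starts (x axis), with called probes in blue; right, the median log2 value of the 191 probes whose motif starts in the first 20 bases, 1 point per array, by group, with circles, squares and triangles for replicates 1, 2 and 3. The replicate number is also the slide, except for acute LPS, whose arrays were on slides 4, 5 and 6. Large negative differences are frequent at the 5′ end and rare beyond base 40, and the 6 Poly(I:C) arrays lie above the 19 others.

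Of the 5 called probes higher in Poly(I:C) without these letters, 3 lie together on chromosome 7. The Isoc2a probe stood at 10.65, 10.34 and 9.71 in Poly(I:C) and at 7.95, 7.71 and 7.68 in CpG, close to the untreated 7.53 to 8.19 (difference -2.46 ± 0.27, limma adjusted p = 0.0483). A long non-coding RNA region that spans it had 2 probes called, with differences of -2.72 and -2.55, and lies on the same strand. Of the remaining pair, Rnf144b, an E3 ubiquitin ligase gene, had a difference of -1.67 (at least 3.19-fold). It stood at 4.52 to 4.70 in Poly(I:C), at 2.76 to 3.11 in CpG and at 3.02 to 5.97 in untreated cells, and its second probe had -1.49 (limma adjusted p = 0.157). AK087124, a transcript with no gene name, was not well above background on any CpG array and was at least 3.85-fold higher in Poly(I:C).

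Antiviral effector genes induced by interferon (39 tested: IFIT, OAS, Mx, ISG15 and their like) lay lower in CpG than in Poly(I:C) as a list, but limma called 0 of them, with 32 at an unadjusted p under 0.05. Their median difference was -1.36 against 0.00 for all probes, and 28 of 39 did not overlap with Poly(I:C) higher, against the 9.35% of all probes, and 0 with CpG higher. The median was -2.07 on slide 1, -1.70 on slide 2 and -0.26 on slide 3. None of their probes held the 4 motifs. On slides 1 and 2 alone 32 of 39 were called higher in Poly(I:C), and in the fit over all 9 groups 20 were.

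Ifit2, whose protein binds viral RNA, stood at 16.60, 16.30 and 15.56 in Poly(I:C) and at 12.16, 12.32 and 15.31 in CpG, against 11.22, 11.41 and 9.91 in untreated cells (difference -2.89 ± 0.87, limma adjusted p = 0.231). Mx1, a dynamin-like antiviral GTPase, stood at 16.72, 16.64 and 16.57 in Poly(I:C) and at 13.50, 13.47 and 15.87 in CpG. Cmpk2, a mitochondrial nucleotide kinase, stood at 17.19, 17.09 and 16.35 in Poly(I:C) and at 12.66, 12.62 and 16.08 in CpG. In each of these genes the CpG array of slide 3 lay nearer to the Poly(I:C) arrays than the other CpG arrays did. Over the list, the median level was 12.69, 12.78 and 14.26 on the CpG arrays and 15.03, 14.96 and 14.60 on the Poly(I:C) arrays.

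Interferon-inducible GTPases, the guanylate-binding and immunity-related proteins that act on pathogen vacuoles (22 tested), had the same pattern, with a median of -1.89. Of these, 17 did not overlap with Poly(I:C) higher, and limma called 0 in the fit of 6 arrays, with 20 at an unadjusted p under 0.05. The slide medians were -2.99, -2.55 and -0.20, and on slides 1 and 2 alone all 22 were called higher in Poly(I:C). Gbp4 stood at 12.78, 13.06 and 10.61 in Poly(I:C) and at 7.26, 7.75 and 9.40 in CpG (difference -4.01 ± 0.81, limma adjusted p = 0.136). Iigp1 stood at 13.22, 13.19 and 12.10 in Poly(I:C) and at 8.59, 8.63 and 11.28 in CpG. Untreated Iigp1 was 7.95 to 8.34, so that CpG on slides 1 and 2 stood within 1 log2 unit of it. Some members of this list, and the Ifit3 pair, are near-identical in sequence, and the probes of such genes may share signal.

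**Figure D3:**
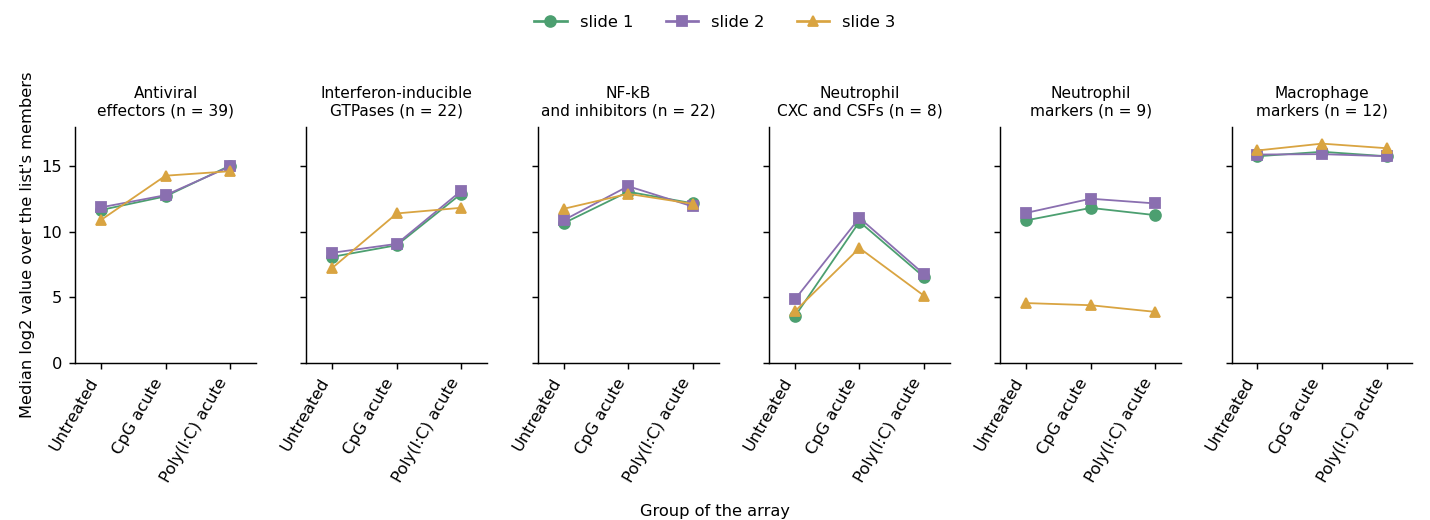
Median log2 value over the members of 6 gene lists (y axis) on the untreated, CpG and Poly(I:C) arrays (x axis), 1 line per slide. On slide 3 the CpG array lies near the Poly(I:C) array for antiviral effectors and GTPases, and neutrophil markers lie near 4 on all 3 arrays of that slide while macrophage markers lie between 15.74 and 16.70 throughout.

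The promoters of these lists were searched for the core of the interferon-stimulated response element, GAAANNGAA, on both strands, in windows from 250 bases before to 50 after each RefSeq start (GRCm38.p6). It was present for 10 of 12 GTPase genes with a window, 12 of 29 antiviral effectors and 9 of 18 nucleic acid sensors, against 9.76% of 27025 genes. A kB-like motif, GGGNNTTTC, was present for 4 of 6 neutrophil chemokine and CSF genes and 6 of 18 NF-kB genes, against 5.06% of all genes, and for 1 of 14 genes called higher in CpG. It was also present for 3 of 12 GTPase genes and for 0 of 29 effectors. The AP-1 motif TGANTCA was present for 1 of 27 genes of the AP-1 list and 0 of 14 called higher in CpG, but for 8 of 29 effectors and 4 of 12 GTPase genes, against 8.97% of all genes. A match is only a description of the letters. Windows are shown for the genes with the largest difference among those that hold the motif, in the called CpG genes (Cxcl1, chr5:90890995-90891294, +), the effectors (Ifit3b, named I830012O16Rik on the array, chr19:34607707-34608006, +) and the GTPases (Tgtp1, chr11:48992197-48992496, -), with the motif in capitals.
Cxcl1: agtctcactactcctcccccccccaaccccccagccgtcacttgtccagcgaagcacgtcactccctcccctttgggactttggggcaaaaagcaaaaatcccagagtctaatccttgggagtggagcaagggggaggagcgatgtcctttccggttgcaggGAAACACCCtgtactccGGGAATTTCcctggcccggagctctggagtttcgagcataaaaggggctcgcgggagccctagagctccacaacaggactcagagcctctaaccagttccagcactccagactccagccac
Ifit3b: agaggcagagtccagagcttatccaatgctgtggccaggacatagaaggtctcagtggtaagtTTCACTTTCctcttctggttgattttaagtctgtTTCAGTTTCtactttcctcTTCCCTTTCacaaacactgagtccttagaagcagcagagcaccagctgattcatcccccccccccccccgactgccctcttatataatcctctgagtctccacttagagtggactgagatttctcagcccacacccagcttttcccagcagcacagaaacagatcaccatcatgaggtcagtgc
Tgtp1: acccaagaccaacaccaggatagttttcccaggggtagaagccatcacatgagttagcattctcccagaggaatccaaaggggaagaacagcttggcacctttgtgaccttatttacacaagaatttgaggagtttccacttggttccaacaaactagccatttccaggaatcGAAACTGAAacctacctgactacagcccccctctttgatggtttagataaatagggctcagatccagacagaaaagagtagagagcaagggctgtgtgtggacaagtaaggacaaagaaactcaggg

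The difference of the Ifit3b gene was -3.46, on slides -4.93, -4.56 and -0.90, and that of Tgtp1 was -3.02, on slides -4.92, -3.64 and -0.49.

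Upstream of these effectors, nucleic acid sensors (22 tested) had a median of -1.25, with 13 not overlapping with Poly(I:C) higher. In the fit of 6 arrays limma called 0, with 17 at an unadjusted p under 0.05. On slides 1 and 2 alone 17 of 22 were called higher in Poly(I:C), and in the fit over 9 groups 11 were, and the slide medians were -1.77, -1.61 and -0.23. Ddx58, which encodes the RNA sensor RIG-I, stood at 14.75, 14.78 and 14.78 in Poly(I:C) and at 12.53, 12.75 and 14.50 in CpG. The DNA sensor cGAS gene (E330016A19Rik on the array) differed by -1.61 ± 0.45 and Ifih1, the RNA sensor MDA5, by -2.10. Of the genes downstream of them, the kinases Tbk1 and Ikbke differed by -0.17 and 0.04 and the adapter Mavs by -0.26. Interferon regulatory factors and STATs (18 tested) had a median of -0.60, with 7 not overlapping with Poly(I:C) higher, against 9.35% of all probes. On slides 1 and 2 alone 7 were called higher in Poly(I:C) and 1 (Batf) higher in CpG. Stat2 differed by -1.79 and Irf7 by -1.37, while Irf3, the factor that TRIF activates at the protein level, was at 0.14.

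Among type I interferons and their receptor (10 tested, median 0.03), limma called 0, with 0 at an unadjusted p under 0.05. Ifnb1 stood at 12.22, 11.68 and 10.99 in Poly(I:C) and at 9.05, 8.30 and 12.25 in CpG (difference -1.76 ± 1.01, limma adjusted p = 0.542), against 2.93 to 3.13 in untreated cells. Both ligands were well above untreated cells, and on slide 3 CpG was the higher by 1.25. On slides 1 and 2 alone Ifnb1 was called higher in Poly(I:C), with a difference of -3.27 (limma adjusted p = 0.0252). The other 9 members, the receptor genes Ifnar1 and Ifnar2 and 7 interferon alpha genes of like sequence, differed by between -0.26 (Ifna5) and 0.5 (Ifnar1). MHC class I genes (22 tested) had a median of -0.33, with 5 not overlapping with Poly(I:C) higher, against 9.35% of all probes. On slides 1 and 2 alone 4 were called higher in Poly(I:C), against 4.01% of all probes. The largest was Nlrc5, their transactivator, at -1.42.

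**Figure D4:**
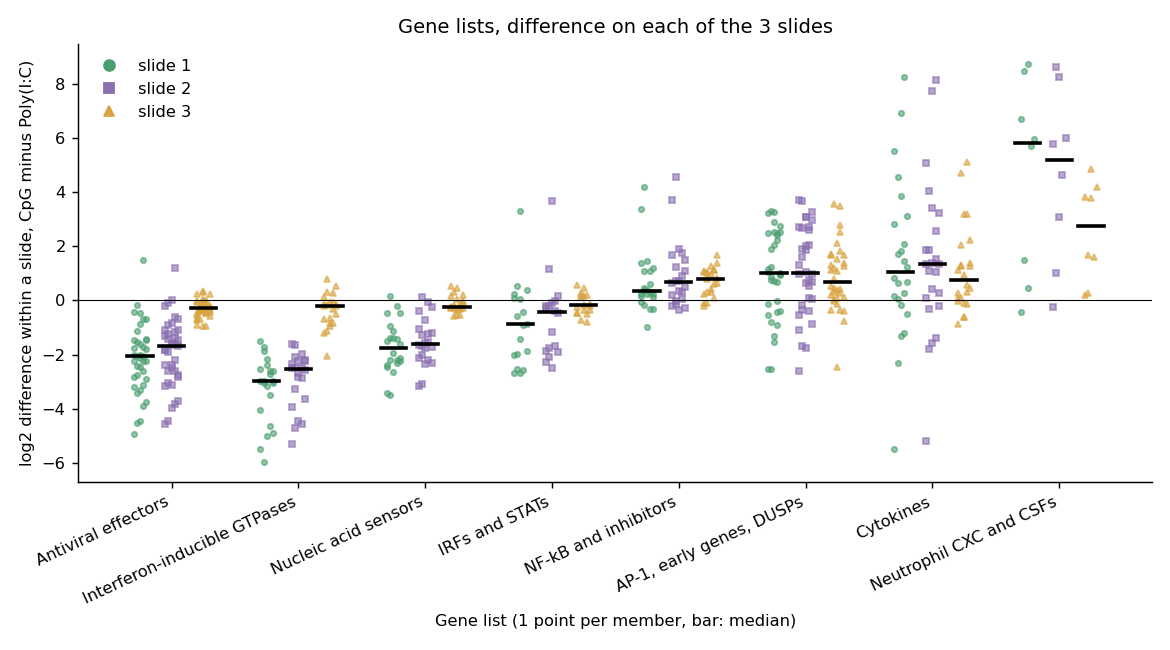
log2 difference within a slide, CpG minus Poly(I:C) (y axis), for the members of 8 gene lists (x axis), with 1 point per member and slide and a bar at each median. The medians of the 3 lists on the left lie below -1.6 on slides 1 and 2 and between -0.26 and -0.20 on slide 3, and those of the neutrophil chemokine and CSF list on the right lie above 2.7 on each slide.

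Neutrophil-attracting CXC chemokines and colony-stimulating factors (8 tested) were higher in CpG, with a median of 4.69, 6 not overlapping and 1 called (Cxcl1), against 5 called on slides 1 and 2 alone. The slide medians were 5.85, 5.21 and 2.76. Cxcl2 stood at 15.88, 15.34 and 15.80 in CpG and at 9.15, 9.56 and 11.98 in Poly(I:C), against 4.85, 6.49 and 9.73 in untreated cells (difference 5.44 ± 0.73, limma adjusted p = 0.0666). Cxcl5 behaved otherwise. It stood at 10.52 and 10.69 in CpG on slides 1 and 2 but at 3.79 on slide 3, with 2.02, 2.03 and 3.5 in Poly(I:C), where no array was well above background. By the means over 3 slides Cxcl5 was thus at least 50.7-fold higher in CpG, a value that rests on slides 1 and 2 and does not hold on slide 3. Csf2, the gene of GM-CSF, stood at 8.32, 7.22 and 4.27 in CpG and at 2.59, 2.58 and 2.66 in Poly(I:C), not well above background there. By the means it was at least 16-fold higher in CpG, which does not hold on slide 3 alone. Csf1 differed by -0.15.

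CXCR3 ligands, which draw T cells, and CC chemokines (15 tested) split, with 4 not overlapping each way. Over all probes the shares were 9.44% with CpG higher and 9.35% with Poly(I:C) higher. limma called 0, with 4 each way at an unadjusted p under 0.05, and on slides 1 and 2 alone 3 were called higher in Poly(I:C) and 2 higher in CpG. Cxcl9 stood at 14.56, 14.42 and 10.45 in Poly(I:C) and at 9.15, 8.70 and 10.21 in CpG, with gaps of 5.41 and 5.71 on slides 1 and 2 and of 0.24 on slide 3. Cxcl10 stood at 18.15, 18.17 and 18.12 in Poly(I:C) and at 15.99, 15.89 and 17.97 in CpG. In the other direction, Ccl17 stood at 7.74, 7.61 and 6.36 in CpG and at 4.37, 4.99 and 3.59 in Poly(I:C) (difference 2.92 ± 0.50, limma adjusted p = 0.0929), a gap of similar size on each slide. Ccl3 differed by 1.87, while Ccl2 (-0.15), Ccl5 (0.27) and Ccl7 (0.19) were close between the ligands.

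Among inflammatory and regulatory cytokines (24 tested), 2 were called, Il1b and Il12b, and 10 did not overlap with CpG higher against 3 with Poly(I:C) higher. Without slide 3, 11 were called higher in CpG and 4 higher in Poly(I:C). Tnf stood at 17.34, 17.09 and 18.05 in CpG and at 14.22, 13.86 and 15.80 in Poly(I:C) (difference 2.87 ± 0.54, limma adjusted p = 0.119). Il6 stood at 13.90, 14.16 and 16.24 in CpG and at 11.82, 11.60 and 13.05 in Poly(I:C) (difference 2.61 ± 0.71, limma adjusted p = 0.204). Both cytokines were higher in CpG on each slide. Edn1, the endothelin-1 precursor, differed by 5.96 ± 0.93 and Il1a by 3.91 ± 0.87. Tnfsf10, the death ligand TRAIL, was the largest in the other direction, at 12.67, 12.81 and 11.26 in Poly(I:C) and 7.18, 7.61 and 10.38 in CpG. Il10 was higher in CpG by 3.86 and 3.41 on slides 1 and 2 and lower by 0.59 on slide 3.

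NF-kB subunits and inhibitors (22 tested) had a median of 0.70, with 9 not overlapping with CpG higher, and 0 with Poly(I:C) higher. limma called 0, with 8 at an unadjusted p under 0.05, and 6 on slides 1 and 2 alone. Nfkbia, the inhibitor I-kappa-B alpha and an early NF-kB target, stood at 17.36, 17.75 and 17.35 in CpG and at 16.28, 15.98 and 16.22 in Poly(I:C) (difference 1.33 ± 0.19, limma adjusted p = 0.0731). Tnfaip3, the deubiquitinase A20, differed by 1.36 ± 0.22, with 1.38 on slide 3, and Zc3h12a, the RNase regnase-1, by 3.27, with 1.03 on slide 3. AP-1 factors, immediate early genes and MAPK phosphatases (34 tested) had a median of 0.95, with 17 not overlapping with CpG higher, 2 with Poly(I:C) higher and 3 called. Without slide 3, 14 were called higher in CpG and 2 higher in Poly(I:C). Dusp1 and Dusp2, phosphatases of MAP kinases, differed by 2.29 and 2.33. Fos (-1.15) and Mafk (-1.84) were higher in Poly(I:C) without overlap, opposite to Fosl1 and Maff. Atf3 (0.03) and Egr1 (-0.11) were close. The slide medians of the AP-1 list, 1.0, 1.02 and 0.67, were less apart than those of the interferon lists.

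The SOCS family, feedback inhibitors of cytokine receptors (8 tested), had a median of 0.02 but was split. Of its members, 3 did not overlap with CpG higher and 2 with Poly(I:C) higher, against 9.44% and 9.35% of all probes. Socs3 stood at 16.70, 16.75 and 15.16 in CpG and at 13.82, 13.65 and 13.52 in Poly(I:C), and Socs1 at 11.60, 11.90 and 13.69 in CpG and 14.69, 14.68 and 14.02 in Poly(I:C). Neither was called (limma adjusted p = 0.0986 and 0.208), and on slides 1 and 2 alone both were, with differences of 2.99 and -2.93. Among TLRs, adapters and proximal kinases (26 tested, median 0.08), Tlr3, the receptor of Poly(I:C), was higher in Poly(I:C) by 2.05. Ticam1, which encodes TRIF, was higher in CpG by 1.85, with 11.84, 11.82 and 10.77 in CpG, 9.32, 9.36 and 10.21 in Poly(I:C) and 10.51 to 11.02 in untreated cells. CpG on slides 1 and 2 thus lay above the untreated range, and Poly(I:C) on all 3 slides lay below it. Ticam2, the adapter TRAM, was higher in CpG by 2.09.

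Of the other lists, NRF2 targets and metallothioneins (14 tested) had a median of 0.88 with 8 not overlapping with CpG higher, and Nfe2l2, the NRF2 gene, differed by 1.37. Glycolysis and HIF-1 genes (19 tested) had 0.41 with 7 not overlapping with CpG higher, with the glucose transporter Slc2a1 at 1.55. Matrix proteases and inhibitors (15 tested) had 0.57, with Plat, not well above background in Poly(I:C), at least 11.2-fold higher in CpG by the group means. Inflammasome components (14 tested) had -0.35, with Nlrp3 called higher in CpG and 5 members not overlapping with Poly(I:C) higher, against 9.35% of all probes. The medians of genes for the prostaglandin and leukotriene pathway (17 tested, 0.20), arginine, nitric oxide and itaconate metabolism (11 tested, 0.58), scavenger and C-type lectin receptors (19 tested, 0.17), cholesterol handling (18 tested, 0.29), costimulatory molecules (17 tested, -0.19) and DNA replication (26 tested, -0.14) were smaller than 0.6 in size, and Ptgs2 was the 1 call among them. The costimulatory list was split, with 4 members not overlapping with Poly(I:C) higher and 2 with CpG higher. On slides 1 and 2 alone 5 of the 17 were called higher in Poly(I:C) and 2 higher in CpG, against 4.01% and 2.26% of all probes. The macrophage receptor Marco stood at 16.80, 17.00 and 18.56 in CpG and at 11.56, 13.01 and 18.15 in Poly(I:C), with untreated cells at 9.99, 11.42 and 17.97, so that its slide differences were 5.24, 3.99 and 0.41. Among macrophage markers the median was -0.08. Fcgr1, the high-affinity IgG receptor and also an interferon-induced gene, differed by -2.01. Fibroblast (4 tested), dendritic cell (4 tested) and lymphocyte (3 tested) markers had medians of 0.64, -0.10 and -0.36.

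After re-stimulation with the same ligand, 151 of 26339 probes were called higher in CpG (0.573%) and 500 higher in Poly(I:C) (1.9%), and with the replicate block 13 and 75. Of the 23 genes and probes called higher in acute CpG, 5 were called again, and their median difference was 0.99 against 2.83 in the acute state. Of the 23 called higher in acute Poly(I:C), 15 were called again. Rnf144b and AK087124 did not pass the background filter in re-stimulated cells and could not be called there. The median of the 23 was -2.65 against -4.89, and 44 of the 46 called probes kept their sign. The acute arrays chose these probes, so that the 2 sets of values are not on an equal footing.

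Il12b stood at 12.82, 11.09 and 13.79 in re-stimulated CpG and at 11.16, 10.45 and 13.81 in re-stimulated Poly(I:C), so that the groups overlapped and the difference was 0.76 (limma adjusted p = 0.690). Cxcl1 still separated, at 13.04, 14.13 and 14.25 against 8.03, 7.54 and 10.66 (difference 5.07, limma adjusted p = 0.0391). Ier2 differed by -0.18. Hspbap1 stood at 10.02, 8.03 and 8.64 in re-stimulated Poly(I:C) and at 3.88, 3.85 and 3.1 in CpG.

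The interferon-response lists were also lower in re-stimulated CpG. Of their members, 21 of 39 effectors, 14 of 22 GTPases and 9 of 22 sensors were called higher in re-stimulated Poly(I:C), against 1.9% of all probes, and 0 higher in CpG. Ifit2 stood at 14.97, 14.97 and 14.78 in Poly(I:C) and at 11.99, 11.23 and 12.15 in CpG, so that the CpG array of slide 3 lay with the other CpG arrays. Over the effector list the median level was 12.47, 12.43 and 12.81 in CpG and 14.59, 14.69 and 14.52 in Poly(I:C). The difference between the acute and the re-stimulated contrast was tested directly: limma called 0 of 27782 probes (0%), with 2845 at an unadjusted p under 0.05. Il12b had a limma adjusted p of 0.394 there. The count depended on the fit: with the replicate block it was also 0, in 1 fit over all 9 groups it was 11, in that fit with the block 42, and without the third re-stimulated Poly(I:C) array 448.

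**Figure D5:**
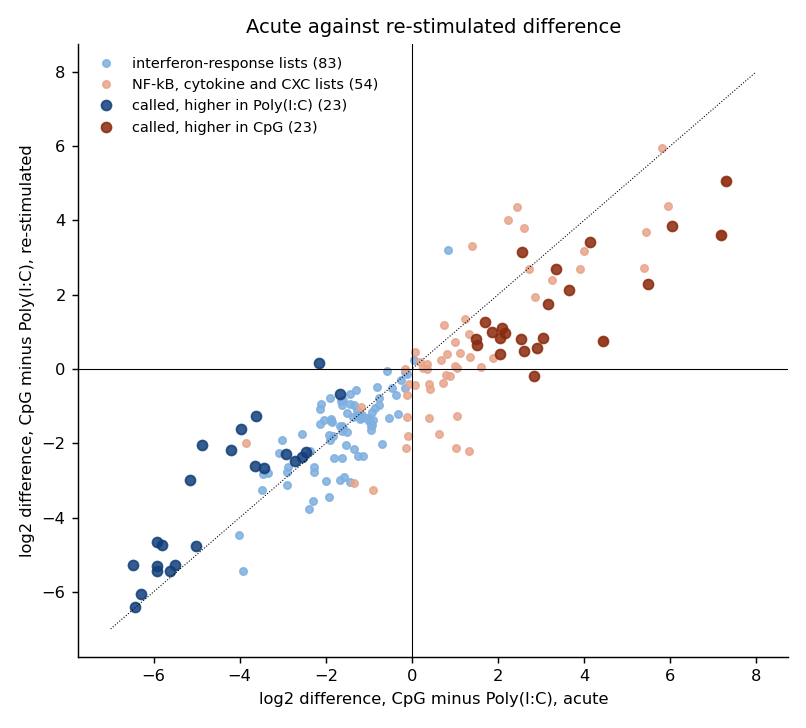
log2 difference, CpG minus Poly(I:C), in re-stimulated cells (y axis) against that in acute cells (x axis) for the called probes and 2 sets of gene lists, with a dotted line where both are equal. Probes called higher in Poly(I:C) lie below 0 on both axes except AK087124, and most probes called higher in CpG lie below the dotted line.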

How the data were processed

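The authors hybridised Cy3-labelled RNA (200 ng per sample) to 1-colour Agilent arrays, and the deposited spot intensities come from Feature Extraction 10.7.3.1 and are not normalized. Per the labels and the study's methods, the authors made the deposited log2 values for 25 of 27 arrays with limma, by RMA background correction and quantile normalization. Those log2 values were used here, and the 2 other arrays were not used. Values made again from the intensities (median signal minus local background) differed from them by a median of 0.0077. Flags of the scanner software gave the background filter, gene names are those of the array files, and 16464 of 26533 tested probes matched a RefSeq transcript.

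CpG and Poly(I:C) arrays were compared with limma 3.58.1 in R 4.3.3 (linear model, empirical Bayes, Benjamini-Hochberg over all probes tested), in a fit of those 6 arrays, and likewise for re-stimulated cells. The difference between both contrasts was tested in 1 fit of 4 groups. The fits were also run on simulated arrays drawn independently with no slide effect, so that run does not cover the pairing described next. Every adjusted p is from limma. CpG and Poly(I:C) samples with the same replicate number deviated from their group means together (r = 0.375, 0.424 and 0.537 over 26533 probes). For these 2 ligands each number was 1 slide in the array files, so the number pairs their samples. The acute LPS arrays were on slides 4, 5 and 6. In the fits over all 9 groups with the replicate block, the block therefore does not stand for the slide in that group. Unless the replicate block is named, the adjusted p-values come from fits without this pairing. With the block the smallest adjusted p of the acute contrast was 0.0507 (limma). Each group has 3 arrays, which limits the precision.

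The genes named are the 10 largest differences in each direction among called, non-overlapping probes, plain gene names first, and members of 29 gene lists, each by the probe with the highest mean over the 6 arrays. The comparison, its members and the lists were chosen with earlier results of these data known. Other called probes and the motifs were named after their values were seen. The alternatives tried were values made again, median scaling, the processed signal, other background filters and folds, 1 fit over all 9 groups, the replicate block and each array left out. Chosen after seeing the data were the fit over 9 groups with the block, slides 1 and 2 alone, and the fit without motif-bearing probes.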

Additional observations from a re-analysis of the deposited data

How the results depend on the processing

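For acute CpG against acute Poly(I:C), 46 probes were called. The count was 47 with values made again from the scanner files, 62 with the processed signal and 46 at 2-fold or with no fold threshold. It was 291 with median scaling (119 higher in CpG, 172 in Poly(I:C)), 2 with no detection filter, 88 with probes well above background on all 3 arrays, 1344 in 1 fit over all 9 groups, 1774 in that fit with the replicate block, 1662 on slides 1 and 2 alone and 13 without motif-bearing probes. With the replicate block alone, 0 were called. Leaving out 1 array gave between 0 and 826 calls, with 0 without replicate 1 or 2 of either ligand, 826 without CpG replicate 3 and 503 without Poly(I:C) replicate 3. The 46 probes kept their sign wherever they were tested. For the re-stimulated contrast (651 calls), the count was 227 with no detection filter, 2338 over 9 groups, 3275 over 9 groups with the replicate block and 88 with the block alone, and 0 to 4483 with 1 array left out (the highest without Poly(I:C) replicate 3, and 0 without CpG replicate 1 or 2). For the difference between both contrasts (0 calls), the fit over 9 groups gave 11 and that fit with the replicate block 42, and leaving out 1 array gave 0 to 448, the highest without re-stimulated Poly(I:C) replicate 3 (19 without acute CpG replicate 3). All 20 named genes kept their direction under every setting in which they were tested, and none was called under all of them. With the replicate block, the adjusted p of Il12b was 0.0644. The median differences of the antiviral effector, GTPase, sensor, neutrophil chemokine, NF-kB and AP-1 lists kept their sign in all settings run, and those of 13 of the 29 lists, each with a median of at most 0.41 in size, did not.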
